A study of Mus musculus with 12 samples.

Results

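CaMKK2 and the kinases around it were described as a set of 10 genes, chosen by gene symbol: the Ca2+/calmodulin-dependent kinase kinases (Camkk2, Camkk1), the CaM kinases I and IV (Camk1, Camk1d, Camk4), the CaM kinases II (Camk2d, Camk2g) and one AMPK subunit of each kind (Prkaa1, Prkab1, Prkag1). Of these, 9 had a row among the 14098 genes of the TPM table, and the level of Camkk1 was not analysed here. The members that passed the limit of at least 1 TPM in at least 2 of 12 libraries were 8. That limit left 11194 genes to test. Camk4 did not pass it. TPM is a unit in which reads are divided by gene length and all libraries share the same total.

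The RNA came from BMDM, macrophages grown from mouse bone marrow in medium conditioned by L929 cells, which the labels describe as coming from male and female C57Bl/6 mice of 8 to 10 weeks, either WT or Camkk2-/- (KO). In all 12 libraries the Y-linked genes Ddx3y (16.5 to 23.9 TPM) and Eif2s3y (42.9 to 59.1 TPM) were expressed and Xist was at most at 0.0429 TPM. By these genes all 12 libraries looked male, although the labels name both sexes. All BMDM were embedded in collagen-hyaluronic acid hydrogel. The 6 groups were WT and KO BMDM in soft matrix, in soft matrix with IL-4 (soft+IL-4) and in stiff matrix, with 2 biological replicates in each. The stiff matrix was made by UV crosslinking with the photoinitiator Irgacure at 24 h after encapsulation and the cells were cultured for 48 h more, and its collagen content was also higher than that of the soft matrix. Stiffness therefore cannot be told apart from the light, the photoinitiator and the collagen content in these libraries. The labels do not say which mice gave which library or which part of Camkk2 is deleted.

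CaMKK2 is a serine/threonine kinase that is switched on when Ca2+-loaded calmodulin binds it. It phosphorylates the activation loop of CaM kinase I, of CaM kinase IV and of the catalytic subunit of AMPK, and so ties a rise of cell Ca2+ both to CaM kinase signalling and to the energy sensor AMPK. The CaM kinases II bind Ca2+/calmodulin themselves and phosphorylate one another, without an upstream kinase. These steps act on proteins, and mRNA levels do not measure the activity of a kinase.

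The changes past the test were mostly in the genes of the CaM kinases I. Camk1 and Camk1d fell with IL-4 in BMDM of both genotypes and with the stiff matrix in WT BMDM. They passed no test with the stiff matrix in KO BMDM, although both were lower in each KO stiff library than in either KO soft library. Both were higher in KO than in WT BMDM in the stiff matrix. In a fit of the stiff libraries alone neither gene passed (adjusted p = 0.323 for Camk1 and 0.382 for Camk1d, limma). The difference between the genotypes in the response to the stiff matrix passed for neither gene (adjusted p = 0.0806 for Camk1 and 0.348 for Camk1d, limma). Camkk2 itself varied more among the 12 libraries than any other of the 8 tested genes, did not follow the genotype labels and passed the test in no comparison.

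The sequence upstream of Camk1 and of the longer transcripts of Camk1d is shown because these genes fell together. Camk1 lies on the minus strand of mm10 (GRCm38) at chr6:113334124-113343984, and Camk1d on the minus strand at chr2:5293457-5714515. RefSeq promoters (GRCm38.p6) were matched for 8 of the 10 genes besides Camk4, which was left aside, and Camk2g. Of the 250 bases before each start, those before the first annotated exon of GENCODE vM21 are printed 5′ to 3′ on the gene's strand, namely chr6:113343985-113344172 for Camk1 and chr2:5714763-5715012 for Camk1d. Capitals would mark a match to a searched motif, and neither stretch holds one.
Camk1: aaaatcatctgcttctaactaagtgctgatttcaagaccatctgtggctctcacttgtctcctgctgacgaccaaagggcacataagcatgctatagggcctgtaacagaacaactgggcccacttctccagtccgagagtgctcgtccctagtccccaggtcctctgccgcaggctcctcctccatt
Camk1d: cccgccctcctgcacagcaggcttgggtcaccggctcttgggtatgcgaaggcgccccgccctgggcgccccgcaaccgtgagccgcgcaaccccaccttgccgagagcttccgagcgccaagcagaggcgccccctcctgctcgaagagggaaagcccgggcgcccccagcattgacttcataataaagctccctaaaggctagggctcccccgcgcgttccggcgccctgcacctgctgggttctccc

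The motifs searched on both strands in the 250 bases were the STAT6-type site TTCNNNNGAA, the STAT-type site TTCNNNGAA, the cAMP response element TGACGTCA, the PU.1-type ETS site GAGGAAGT, the E-box CACGTG and the MEF2-type site CTANNNNTAG. They occurred in 5.85%, 7.02%, 1.55%, 2.44%, 6.02% and 3.2%, in that order, of 32851 RefSeq promoters of the same length. Among all promoters of the 8 genes the search found 1 match, a STAT-type TTCTGAGAA at 236 bases before the second, internal start of Camk1d. The window of Camk1 held 11 CpG at 58.0% GC, that of the first start of Camk1d 22 CpG at 69.2% GC, and that of its second start 5 CpG at 48.4% GC, against medians of 6 CpG and 52.4% GC over all promoters. The windows of Camk1 and Camk1d thus shared none of the searched motifs and differed in base composition.

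Several facts of the libraries touch the results. The number of reads behind each library's values is unknown, because TPM keeps no counts, and no counting error is given. Genes listed at 0 made up 10.7% to 13.4% of the table in the libraries with replicate number 1, and 5.9% to 7.54% in those with number 2. Each library was compared with the others by the root mean square difference of log2(TPM + 1) over the tested genes. WT stiff 1 stood furthest from its nearest neighbour, at 0.688, whereas WT stiff 2 lay 0.188 from WT soft+IL-4 2 and 0.691 from its own replicate. KO stiff 2 lay 0.246 from KO soft 2. WT soft 2 lay 0.195 from KO soft 2 and 0.375 from its own replicate. KO soft 1 lay 0.388 from WT soft 2 and 0.39 from its own replicate, while KO stiff 1 was nearest to its own replicate, at 0.356. The bearing of these distances on the genotype labels was not tested. All 8 macrophage markers were tested, and their summed level ran from 23580 TPM in WT stiff 1 to 57340 TPM in KO soft 2. The neutrophil, dendritic cell, B cell, T and NK cell, mast cell and basophil, and erythroid lists reached at most 26.58, 21.8, 3.382, 2.857, 2.959 and 0.4659 TPM in any library. Only 1 of 8 erythroid genes had a row.

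The members differed widely in level per length. Over the 12 libraries Camk1 had the highest mean, 161 TPM, above Prkag1 with 47.3 TPM and Camkk2 with 24.1 TPM. Prkab1 (17.9 TPM), Camk1d (16.5 TPM), Prkaa1 (15.6 TPM), Camk2g (11.6 TPM) and Camk2d (10.8 TPM) followed. Camk1 exceeded Prkag1, Prkag1 exceeded Camkk2 and Prkaa1 exceeded Camk2g in 12 of 12 libraries. Camkk2 exceeded Prkab1 in 7, Prkab1 exceeded Camk1d in 8, Camk1d exceeded Prkaa1 in 6 and Camk2g exceeded Camk2d in 8 of 12 libraries, so these neighbours had no fixed order. Camk4, the CaM kinase that acts in the nucleus, was listed at 0 in 9 libraries and at most at 0.0558 TPM, in KO soft 1.

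**Figure D1:**
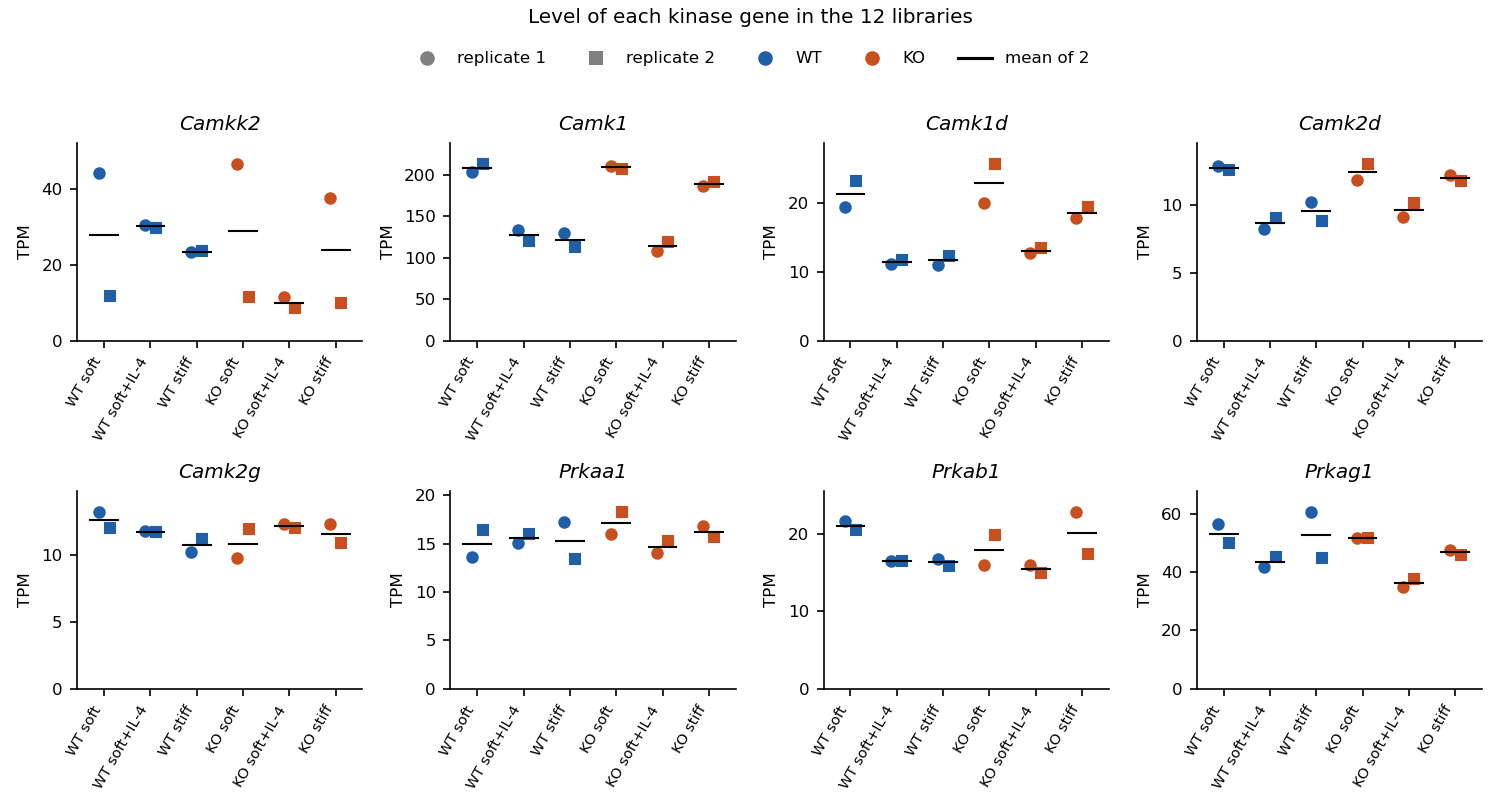
TPM of the 8 tested genes in each group, with replicate 1 as circles, replicate 2 as squares, WT in blue, KO in orange and the mean of 2 as a line. Camk1 and Camk1d were higher in the soft libraries of both genotypes and in KO stiff than in the other 3 groups, whereas Camkk2 was spread between 8.54 and 46.6 TPM across both genotypes.

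Camkk2 (minus strand, chr5:122731170-122779409) is the deleted gene and so checks the labels. In the WT libraries its level was 44.2 and 11.7 TPM in soft, 30.5 and 29.8 TPM with IL-4, and 23.3 and 23.7 TPM in stiff matrix, replicates 1 and 2 in order. In the libraries labelled KO it was 46.6 and 11.5 TPM in soft, 11.5 and 8.54 TPM in soft+IL-4, and 37.7 and 10.0 TPM in stiff matrix. The levels fell into 5 libraries from 8.54 to 11.7 TPM and 7 from 23.3 to 46.6 TPM, with a 1.99-fold step between them. The library labelled WT soft 2 was among the 5 low ones, and the libraries labelled KO soft 1 and KO stiff 1 were among the 7 high ones, KO soft 1 being the highest of all.

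No value at gene level went to 0 in any library labelled KO. Averaged over the 3 conditions, Camkk2 was lower in KO than in WT BMDM by 0.58 on the log2(TPM + 1) scale (SE 0.437, 95% confidence interval -1.56 to 0.40, adjusted p = 0.746 by limma). An exact permutation test over the 216 arrangements of the genotype labels within conditions gave p = 0.287, two-sided, where the smallest p it allows is 0.00926. Leaving out 1 library at a time gave differences from -0.90 to -0.26.

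In soft+IL-4 the genotypes did separate, at 29.8 and 30.5 TPM in WT and 8.54 and 11.5 TPM in KO BMDM (log2 fold change -1.51, SE 0.756, adjusted p = 1, limma). The SE is shared by all 6 groups and takes in the spread of the soft and KO stiff groups. In a fit of those 4 libraries alone Camkk2 passed the threshold (adjusted p = 0.00755). In soft and in stiff matrix the genotypes overlapped, with log2 fold changes of 0.02 and -0.25. Because 3 libraries go against the labels, the members' calls, and the counts over the lists, are also given without them. That fit leaves 1 library in each of those groups, which is assumed to vary like the rest, and since the 3 were named by their Camkk2 level nothing about Camkk2 is read from it.

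**Figure D2:**
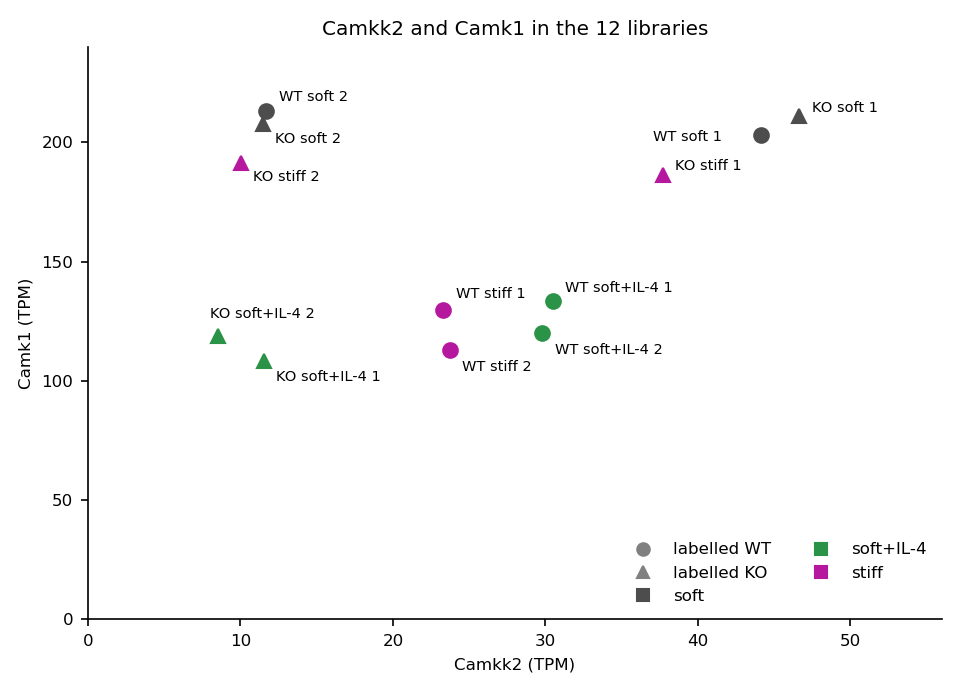
Camkk2 (x axis, TPM) against Camk1 (y axis, TPM) in the 12 libraries, with circles for libraries labelled WT, triangles for those labelled KO and colour for the condition. Camkk2 split the soft libraries and the KO stiff libraries by replicate, while Camk1 lay at or above 186 TPM in those 6 libraries and at or below 134 TPM in the other 6.

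CaM kinases I fell with IL-4 in WT BMDM. Camk1 measured 203 and 213 TPM in WT soft and 134 and 120 TPM in WT soft+IL-4. The groups did not overlap, and the log2 fold change was -0.71 (SE 0.0960, adjusted p = 0.00188, limma). Camk1d, the delta form of CaM kinase I, measured 19.4 and 23.3 TPM in WT soft and 11.1 and 11.7 TPM in WT soft+IL-4 (log2 fold change -0.84, SE 0.143, adjusted p = 0.00618, limma). Camk2d, a CaM kinase II, measured 12.9 and 12.6 TPM against 8.27 and 9.02 TPM (log2 fold change -0.51, SE 0.123, adjusted p = 0.0284, limma). These 3 of the 8 genes fell and none rose, where 10.7% of all tested genes passed in either direction, and the median log2 fold change of the 8 was -0.31 against -0.05 over all tested genes.

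The 5 other genes did not pass the test. Prkab1, the beta scaffold subunit of AMPK, had 21.6 and 20.4 TPM in WT soft and 16.5 and 16.4 TPM in WT soft+IL-4, without overlap (log2 fold change -0.34, adjusted p = 0.186). Without the 3 libraries the log2 fold changes were -0.68 for Camk1, -0.71 for Camk1d and -0.52 for Camk2d, with adjusted p of 0.115, 0.114 and 0.262 (limma). Camk1d also lost its call when WT soft 2 or WT soft+IL-4 1 alone was left out (adjusted p = 0.0627 and 0.0599), and Camk2d kept its call under 8 of the 17 alternatives other than the replicate block (adjusted p from 0.00939 to 0.262). Prkag1 passed without WT stiff 1 or WT stiff 2 (-0.29, adjusted p = 0.0418 and 0.0417).

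KO BMDM showed the fall of the CaM kinases I with IL-4 as well. Camk1 measured 211 and 208 TPM in KO soft and 108 and 119 TPM in KO soft+IL-4 (log2 fold change -0.88, SE 0.0960, adjusted p = 0.000565, limma). Camk1d measured 20.0 and 25.7 TPM against 12.8 and 13.4 TPM (log2 fold change -0.75, SE 0.143, adjusted p = 0.0107, limma). Prkag1, the gamma subunit through which AMPK senses AMP, measured 51.7 and 51.5 TPM against 35.0 and 37.7 TPM (log2 fold change -0.49, SE 0.136, adjusted p = 0.0492, limma). Again 3 of 8 genes fell, with 10.3% of all tested genes called, and the median log2 fold change was -0.42 against -0.05 over all tested genes. Camk2d had 11.8 and 13.0 TPM against 9.13 and 10.2 TPM and did not pass (log2 fold change -0.34, adjusted p = 0.125).

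Without the 3 libraries the changes were -0.87 for Camk1, -0.92 for Camk1d and -0.49 for Prkag1, with adjusted p of 0.0549, 0.0529 and 0.329 (limma). Camk1d missed the threshold without KO soft 2, KO soft+IL-4 1 or KO soft+IL-4 2 (adjusted p = 0.0792, 0.0926 and 0.0645). Prkag1 passed under only 4 of 17 alternatives (adjusted p from 0.00326 to 0.329).

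Averaged over genotypes, IL-4 went with 4 of 8 genes lower and none higher, and 22.9% of all tested genes were called. Camk1 fell by 0.80 (SE 0.0679, adjusted p = 5.74e-05, limma) and Camk1d fell by 0.79 (SE 0.101, adjusted p = 0.000568, limma) on the log2 scale. Camk2d fell by 0.42 (adjusted p = 0.00726) and Prkag1 fell by 0.39 (adjusted p = 0.0171). Prkab1 did not pass (-0.27, adjusted p = 0.0946), but did in a fit of the 8 soft and soft+IL-4 libraries alone (adjusted p = 0.0403). In each of the 4 called genes all 4 soft+IL-4 libraries lay below all 4 soft libraries. Camk1 and Camk1d passed under each of the 17 alternatives, including the fit without the 3 libraries (log2 fold changes -0.77 and -0.82, adjusted p = 0.0137 and 0.013). In that fit Camk2d and Prkag1 did not pass (-0.46 and -0.43, adjusted p = 0.0916 and 0.139), and Prkag1 also missed the threshold without WT soft 1, WT soft+IL-4 1, KO soft 2 or KO soft+IL-4 1 (adjusted p = 0.0657, 0.0687, 0.0501 and 0.0704).

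The effect of IL-4 was not shown to differ between genotypes. The interaction of genotype and IL-4 called 0 of 8 genes at 0% of all tested genes by limma, with 0 of the 8 and 165 of all genes at an unadjusted p under 0.05. For Camk1 the difference of the log2 fold changes was -0.17 (95% confidence interval -0.47 to 0.14) and for Camk1d 0.09 (-0.36 to 0.55). In the fit without the 3 libraries these were -0.19 and -0.21 (adjusted p = 1 for both).

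In the stiff matrix the CaM kinases I fell in WT BMDM. Camk1 measured 130 and 113 TPM in WT stiff against 203 and 213 TPM in WT soft (log2 fold change -0.78, SE 0.0960, adjusted p = 0.00111, limma). Camk1d measured 11.0 and 12.3 TPM in WT stiff against 19.4 and 23.3 TPM in WT soft (log2 fold change -0.81, SE 0.143, adjusted p = 0.00733, limma). Both were as low as in WT soft+IL-4, a comparison that uses the same WT soft libraries. These 2 of 8 genes fell, with 10.6% of all tested genes called in either direction, and the median log2 fold change was -0.28 against 0.02 over all tested genes.

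Camk2d (10.2 and 8.83 TPM in WT stiff) and Prkab1 (16.8 and 15.8 TPM) lay below both WT soft libraries but did not pass (log2 fold changes -0.38 and -0.35, adjusted p = 0.0833 and 0.184, limma). Without the 3 libraries Camk1 and Camk1d changed by -0.74 and -0.69 (adjusted p = 0.0895 and 0.116). In a fit of the 4 WT soft and WT stiff libraries alone the adjusted p was 0.136 and 0.185, and without WT soft 2 it was 0.0693 for Camk1d. WT stiff 1, the library that stood furthest from the rest, and WT stiff 2 gave like levels of both genes, and the calls held without either. Camk2d passed without WT stiff 1 (-0.48, adjusted p = 0.042).

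KO BMDM in the stiff matrix had Camk1 levels of 186 and 192 TPM against 211 and 208 TPM in KO soft (log2 fold change -0.15, 95% confidence interval -0.36 to 0.07, adjusted p = 1, limma). Camk1d had 17.8 and 19.4 TPM against 20.0 and 25.7 TPM (log2 fold change -0.27, 95% confidence interval -0.60 to 0.05, adjusted p = 1). Both genes were lower in each KO stiff library than in either KO soft library, and the intervals include 0. In this comparison limma called 0 of 8 genes, 0 of them at an unadjusted p under 0.05, and 0.0447% of all tested genes (295 at an unadjusted p under 0.05).

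**Figure D3:**
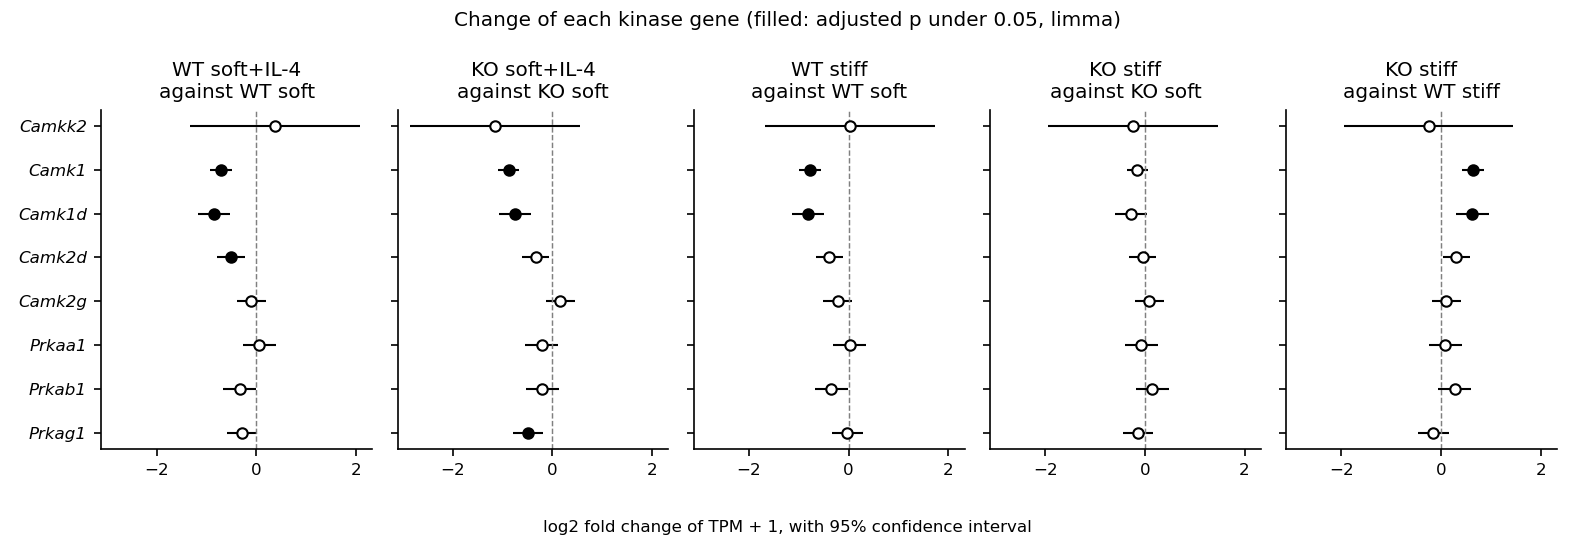
Log2 fold change of TPM + 1 (x axis) of the 8 genes in 5 comparisons, with 95% confidence intervals, filled where limma's adjusted p was under 0.05. Camk1 and Camk1d lay left of 0 with IL-4 in both genotypes and with the stiff matrix in WT, left of 0 with intervals that include it with the stiff matrix in KO, and right of 0 in KO stiff against WT stiff.

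Between the genotypes in the stiff matrix, Camk1 was higher in KO (186 and 192 TPM) than in WT BMDM (130 and 113 TPM), without overlap (log2 fold change 0.64, SE 0.0960, adjusted p = 0.0063, limma). Camk1d was higher too, at 17.8 and 19.4 TPM against 11.0 and 12.3 TPM (log2 fold change 0.63, SE 0.143, adjusted p = 0.0382, limma). These 2 of 8 genes rose, with 4.93% of all tested genes called in either direction. Camk2d had 12.2 and 11.8 TPM in KO stiff and 10.2 and 8.83 TPM in WT stiff, without overlap, and did not pass (log2 fold change 0.31, adjusted p = 0.219).

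Camk1 and Camk1d differed by 0.66 and 0.69 (adjusted p = 0.179 and 0.177) without the 3 libraries. The library labelled KO stiff 1, in which Camkk2 was at 37.7 TPM, had nearly the same Camk1 and Camk1d as KO stiff 2, in which it was at 10.0 TPM. Leaving out KO stiff 1 or KO stiff 2 ended the call of Camk1 (adjusted p = 0.0505 and 0.0631) and of Camk1d (0.146 and 0.215), and Camk1d also missed the threshold without WT stiff 1 (0.0826), without any 1 of the 4 soft+IL-4 libraries (0.0688 to 0.0736) and with no filter on low values (0.0552). Without WT stiff 2, Prkag1 was lower in KO stiff (-0.37, adjusted p = 0.032). In a fit of the 4 stiff libraries alone the adjusted p was 0.323 for Camk1 and 0.382 for Camk1d.

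The difference between the genotypes in the response to the stiff matrix was tested by the interaction, which called 0 of 8 genes by limma, with 0.974% of all tested genes called. Camk1, Camk1d and Prkab1 had an unadjusted p under 0.05. For Camk1 the difference of log2 fold changes was 0.63 (95% confidence interval 0.33 to 0.94, unadjusted p = 0.0011, adjusted p = 0.0806), and it passed when WT stiff 1 (0.73, adjusted p = 0.0115) or WT stiff 2 (0.53, adjusted p = 0.0135) was left out. For Camk1d it was 0.54 (95% confidence interval 0.08 to 1.00, adjusted p = 0.348), and for Prkab1 0.50 (0.04 to 0.96, adjusted p = 0.413). In the fit without the 3 libraries they were 0.63, 0.30 and 0.21 (adjusted p = 0.998 for each). Averaged over genotypes, the stiff matrix went with lower Camk1 (log2 fold change -0.46, adjusted p = 0.00403) and Camk1d (-0.54, adjusted p = 0.0135), at 6.47% of all tested genes called. In this average the Camk1d levels of the stiff and soft libraries overlapped, and it did not pass without WT soft 2 or KO stiff 1 (adjusted p = 0.0636 and 0.0698). Neither gene passed without the 3 libraries (-0.43 and -0.54, adjusted p = 0.269 and 0.192).

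In the soft matrix and with IL-4, KO and WT BMDM had levels of the CaM kinases I that did not pass the test. Camk1 differed by 0.01 (95% confidence interval -0.21 to 0.22) in soft and by -0.16 (-0.37 to 0.06) in soft+IL-4 on the log2 scale. Camk1d differed by 0.09 (-0.23 to 0.41) and 0.18 (-0.14 to 0.51). With the 3 libraries left out the soft difference was 0.03 for Camk1 and 0.39 for Camk1d (adjusted p = 1 for both). Limma called 0 of 8 genes and 0% of all tested genes in either comparison, with 0 of the 8 at an unadjusted p under 0.05 in both, and 130 and 233 of all tested genes. Averaged over the 3 conditions, KO against WT called 0 of 8 genes and 0.134% of all tested genes. Camk1 (0.16, adjusted p = 0.38) and Camk1d (0.30, adjusted p = 0.257) had an unadjusted p under 0.05 there. Without WT stiff 2, Camk1d (0.33, adjusted p = 0.0368) and Prkag1 (-0.22, adjusted p = 0.0296) passed.

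The CaM kinases II and the AMPK subunits varied less. Camk2g (minus strand, chr14:20734875-20794088) ranged from 9.80 to 13.2 TPM, with a coefficient of variation of 8.18% over the 12 libraries, below the median of 16.4% of all tested genes. Camk2d (plus strand, chr3:126596302-126846326) ranged from 8.27 to 13.0 TPM, with its 6 lowest values in the soft+IL-4 libraries and in WT stiff, as for Camk1. Prkaa1, the alpha 1 catalytic subunit of AMPK that CaMKK2 phosphorylates (plus strand, chr15:5143861-5181899), ranged from 13.4 to 18.3 TPM and varied by 9.47%. Prkaa1 and Camk2g passed no test in any of the 12 comparisons. Prkab1 (minus strand, chr5:116013586-116024508) ranged from 14.9 to 22.8 TPM, the highest value being in the library labelled KO stiff 1. Prkag1 (minus strand, chr15:98812797-98831521) ranged from 35.0 TPM in KO soft+IL-4 1 to 60.5 TPM in WT stiff 1. The coefficient of variation was 57.1% for Camkk2, 30.8% for Camk1d and 27.1% for Camk1. Only Camk1 among the 8 overlaps another gene of the table, Ogg1 on the opposite strand, and the libraries were strand-specific.

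The other AMPK subunits were at like or lower levels. Prkag2 ranged from 8.66 to 13.5 TPM and Prkab2 from 3.96 to 8.39 TPM, the latter highest in WT stiff 1, and neither passed in any comparison. Prkaa2, the alpha 2 catalytic subunit, reached at most 0.389 TPM, also in WT stiff 1, and was not tested. Per length, the levels of Prkaa1, Prkab1 and Prkag1 exceeded those of Prkaa2, Prkab2 and Prkag2 in all 12 libraries.

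The 149 genes of 10 pathway lists around these kinases were described by counts, beside the share of all tested genes called that is given above for each comparison. Of them 124 were tested. With IL-4, 17 were called in WT and 17 in KO, at 10.7% and 10.3% of all tested genes. With the stiff matrix 15 were called in WT, at 10.6%, and 9 in KO stiff against WT stiff, at 4.93% of all tested genes. Without the 3 libraries, an alternative added after the data were seen, the counts were 1, 3, 1 and 0 of 123, at 1.21%, 1.86%, 1.37% and 0.181% of all tested genes. Fnip2 was the gene called in WT with IL-4 and with the stiff matrix in that fit. With IL-4 averaged over genotypes 40 of the 124 were called, and 10 of 123 in that fit, at 7.27% of all tested genes. In the list of calmodulin and its binding regulators 2 of 9 tested genes fell with IL-4 in WT, 2 with the stiff matrix in WT and 2 with IL-4 in KO, and 2 rose in KO stiff against WT stiff, in each case Marcksl1 and Pcp4l1. Marcksl1, a calmodulin-binding substrate of protein kinase C, had log2 fold changes of -1.89, -2.29 and -1.70 in the first 3 (adjusted p = 0.0049, 0.00171 and 0.00793) and was 2.07 higher in KO stiff than in WT stiff (adjusted p = 0.00618). Pcp4l1 was at 65.0 and 61.5 TPM in WT soft, 1.44 and 11.1 TPM in WT stiff and 52.7 and 46.3 TPM in KO stiff. Its level in WT stiff thus differed several-fold between the replicates.

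The regulators upstream of AMPK and bound to it gave 3 of 14 lower with IL-4 in WT, 2 lower with the stiff matrix in WT, 3 lower with IL-4 in KO and 2 higher in KO stiff against WT stiff. Fnip2, a folliculin-interacting protein that binds AMPK, was in WT BMDM at 78.7 and 79.7 TPM in soft matrix, 41.7 and 44.3 TPM when IL-4 was added, and 40.8 and 43.5 TPM in stiff matrix. In KO BMDM it was at 71.6 and 83.8 TPM in soft, 40.7 and 41.7 TPM in soft+IL-4, and 72.3 and 72.2 TPM in stiff matrix. It fell in WT stiff (log2 fold change -0.90, adjusted p = 0.000456, limma). In the interaction of genotype and stiff matrix it passed as well (0.80, adjusted p = 0.0283, limma). With all 12 libraries it was the 1 gene that passed this interaction among the 124 tested genes of the 10 lists. That share is no higher than the 0.974% of all tested genes called there, and Fnip2 passed with all 12 libraries only. In the fit without the 3 libraries it did not (0.67, adjusted p = 0.92). Sesn1, a sestrin that binds AMPK and GATOR2, fell in WT stiff (log2 fold change -1.28, adjusted p = 0.0019) and was higher in KO stiff than in WT stiff (1.06, adjusted p = 0.00931). Stk11, which encodes LKB1, the other main upstream kinase of AMPK, was in this list and was not called in any comparison.

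Of the 21 tested genes for AMPK substrates none was called in the single comparisons by limma. With IL-4 averaged over genotypes 4 were called, or 19%, a share below the 22.9% of all tested genes called there. Foxo3 fell by 0.50 (adjusted p = 0.0117), Ulk1, the kinase that starts autophagy, fell by 0.51 (adjusted p = 0.031), Lipe fell by 0.35 (adjusted p = 0.0379) and Tbc1d1 rose by 0.30 (adjusted p = 0.0243) on the log2 scale. None of these 4 was called in the fit without the 3 libraries. Of 10 AMPK-related kinases, 1 (10%) fell with IL-4 in WT and 1 (10%) in KO. These shares are near the 10.7% and 10.3% of all tested genes called there. With the stiff matrix in WT 2 (20%) fell, where 10.6% of all tested genes were called. Nuak1 was called in each of these comparisons (log2 fold changes -0.97, -1.47 and -0.99, adjusted p = 0.0264, 0.00378 and 0.0242, limma).

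Of 17 nuclear targets of the CaM kinases, 1 (5.88%) fell with IL-4 in either genotype. All tested genes were called at 10.7% in WT and 10.3% in KO. The target called was Fos, at 102 TPM in both WT soft libraries. It was at 51.7 and 49.9 TPM in WT soft+IL-4 libraries, and WT stiff libraries held 29.6 and 49.6 TPM. In KO stiff Fos was at 92.7 and 84.5 TPM, higher than in WT stiff (log2 fold change 1.19, adjusted p = 0.00779). Of 10 genes for calcineurin, the Ca2+/calmodulin-dependent phosphatase, and its NFAT substrates, 4 fell and 1 rose with IL-4 in WT (50% called). Nfatc2 fell in WT stiff (log2 fold change -1.17, adjusted p = 0.00137) and was higher in KO stiff than in WT stiff (1.09, adjusted p = 0.00392), while Ppp3r1, the regulatory subunit of calcineurin, rose with IL-4 in WT (0.39, adjusted p = 0.0245). Of 18 genes of the AKT pathway 3 (16.7%) fell with IL-4 in WT and 4 (22.2%) in KO, among them Pik3r5 and Pik3cg, subunits of the gamma form of PI3 kinase. Of 16 genes for Ca2+ entry and store release, 2 (12.5%) fell in WT stiff, near the 10.6% of all tested genes called there. The channel gene Trpv2 was 1 of them (log2 fold change -0.45, adjusted p = 0.00866, limma). Of the 7 tested genes among the other CaM kinase family members, 1 (14.3%) fell with IL-4 in WT and 2 (28.6%) in KO. Dapk1 fell in WT (-0.49, adjusted p = 0.00861, limma). In KO both Dapk1 (-0.36, adjusted p = 0.0334) and Cask (-0.81, adjusted p = 0.0165) fell. In KO stiff against KO soft limma called no gene of any of the 10 lists.

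**Figure D4:**
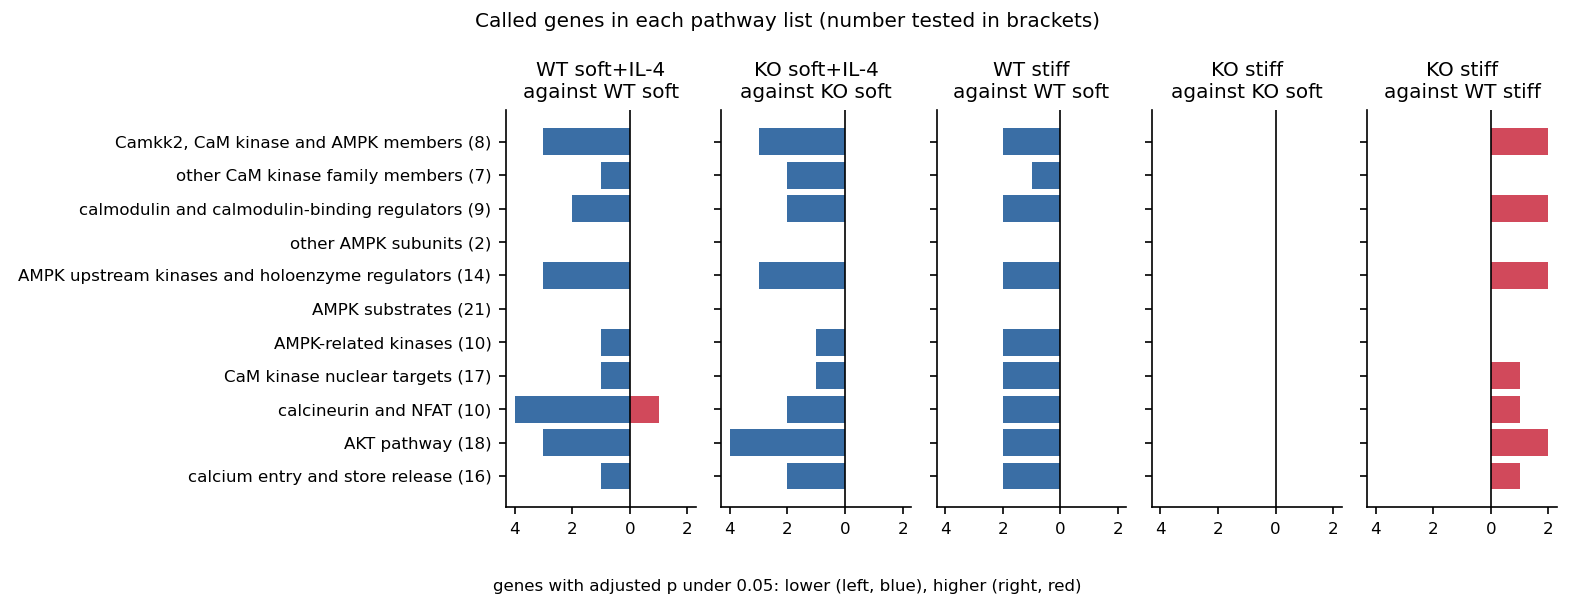
Number of genes with an adjusted p under 0.05 by limma in each list, lower to the left in blue and higher to the right in red, for 5 comparisons, with the number tested in brackets. Calls were lower with IL-4 and in WT stiff, except 1 calcineurin gene that rose with IL-4 in WT, none in KO stiff against KO soft, and all higher in KO stiff against WT stiff.

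Among the macrophage markers themselves 5 of 8 fell with IL-4 in WT, 4 with the stiff matrix in WT and 3 with IL-4 in KO, and 3 were higher in KO stiff than in WT stiff, where 10.7%, 10.6%, 10.3% and 4.93% of all tested genes were called. In the fit without the 3 libraries these counts were 2, 1, 3 and 1, an alternative added after the data were seen. Their summed level was 50890 to 54200 TPM in WT soft, 25140 to 25600 TPM in WT soft+IL-4 libraries and 23580 to 24760 TPM in WT stiff, and 51580 to 57340, 23640 to 23990 and 45540 to 48130 TPM in the KO groups in that order. Of 4 tested dendritic cell markers only Ccr7 was called, and it rose with IL-4 (log2 fold change 1.5) and with the stiff matrix (1.99) in WT. The summed level of that list was 5.11 to 7.27 TPM in WT soft and 13.8 to 21.8 TPM in WT stiff. Ccr7 alone was at 2.24 and 3.04 TPM in WT soft and at 19.1 and 9.31 TPM in WT stiff, so the sum mostly restates this gene. The 1 tested T and NK cell marker, Cd4, fell with IL-4 in both genotypes and with the stiff matrix in WT (-0.96, -1.10 and -1.18). In the fit without the 3 libraries neither was called in these comparisons. These markers moved in the same comparisons as the CaM kinases I, and their part in those results was not tested. In these bulk libraries fewer cells of a type and less RNA per cell cannot be told apart.

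The pattern of Camkk2 over the 12 libraries was compared with that of the other 11193 tested genes, by Pearson's r of log2(TPM + 1), as a description. The most alike were Apoe (r = 0.981), which encodes a lipid carrier made by macrophages, Fam43a (0.967), Rps3a1 (0.954), a ribosomal protein gene with close copies that make its level uncertain, Car9 (0.954), a carbonic anhydrase, and Gltp (0.942), a glycolipid transfer protein. The most opposed were 1500011B03Rik (r = -0.974), Gbp2b (-0.963), one of a family of similar guanylate-binding proteins, and Ppp1r37 (-0.946). The points share their libraries and Camkk2 fell into separate clusters of values, so r mostly restates which library lay in which cluster. The other 7 tested members had r between -0.139 (Prkaa1) and 0.446 (Prkag1).

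Apoe was in WT BMDM at 8727 and 1362 TPM in soft matrix, 4162 and 3757 TPM when IL-4 was added, and 3424 and 2873 TPM in stiff matrix. In libraries labelled KO it was at 8891 and 1234 TPM in soft, 909 and 468 TPM in soft+IL-4 and 7767 and 1092 TPM in stiff matrix. It set WT soft 2 beside the low KO libraries and KO soft 1 and KO stiff 1 beside WT soft 1, as Camkk2 did. Car9 was at or under 0.391 TPM in the 5 libraries with low Camkk2 and at or above 3.02 TPM in the other 7. Both genes were picked by their r with Camkk2, so this grouping follows from the choice and is no separate check of the labels. Of the 8 genes, Gltp and 1500011B03Rik lie on chromosome 5 as Camkk2 does, 8.04 and 7.91 megabases away. Thus 2 of 8 were within 10 megabases of Camkk2, as were 1.48% of the tested genes with coordinates. This limit was not fixed beforehand. The 2 genes also lie near each other (chr5:114669398-114690984 and chr5:114808196-114823468) and are not separate cases, so no enrichment is read from the shares. Apoe and Ppp1r37, also among the 8, lie near each other on another chromosome (chr7:19696109-19699188 and chr7:19530800-19563076).

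**Figure D5:**
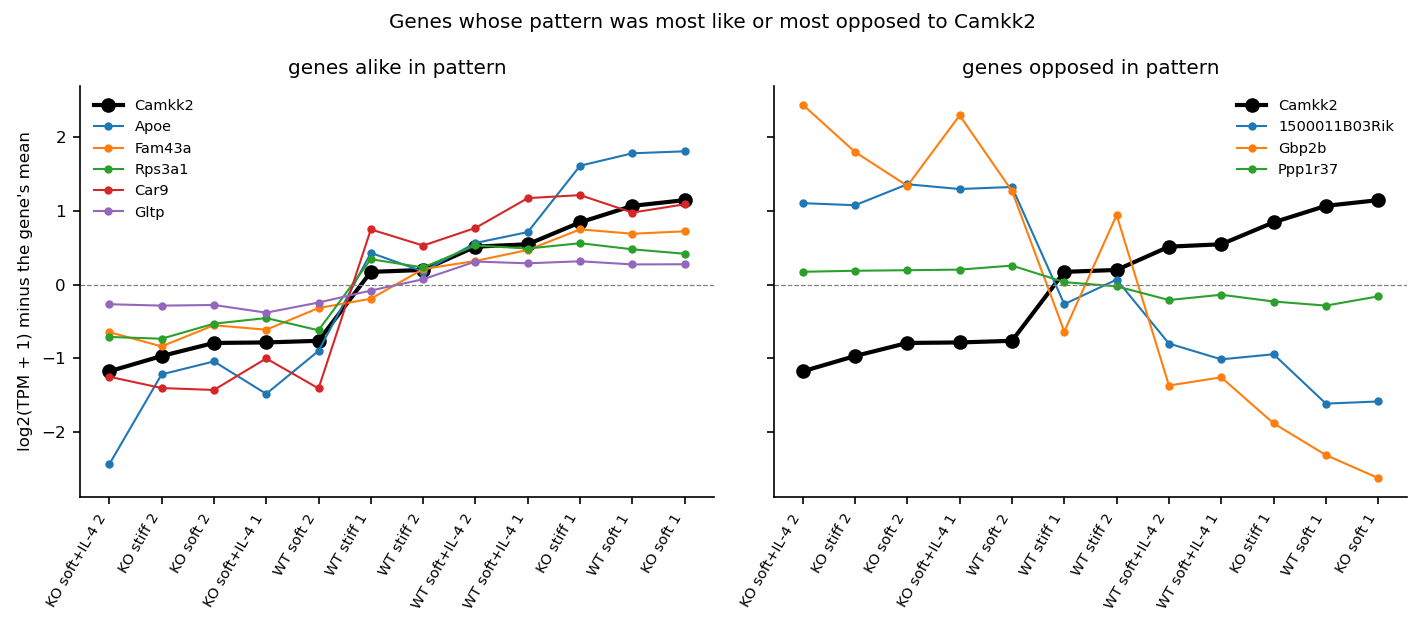
Log2(TPM + 1) minus each gene's mean over the 12 libraries (y axis), with libraries ordered by their Camkk2 level, for the 5 genes most alike and the 3 most opposed to Camkk2 in black. The 5 libraries at the left, WT soft 2 among them, had low Camkk2, and KO stiff 1 and KO soft 1 lay among the highest 3.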

How the data were processed

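BMDM RNA was sequenced in 12 poly-A, strand-specific libraries, 2 in each of 6 groups taken from the labels. The authors deposited 1 table of TPM values. The submitters' processing notes name Trim Galore 0.6.7, Salmon 1.4.0 and mm10, whereas the methods describe STAR and featureCounts. The annotation and the choice of genes are not given in the sources used here. TPM keeps no depth, so precision rests on the replicates, which the labels call biological.

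The 11194 genes that reached 1 TPM in 2 or more libraries were tested by limma 3.58.1 (R 4.3.3), after a log2(TPM + 1) transform. Fold changes on this scale understate those of low genes. All 12 libraries entered 1 model with a mean for each group, no covariates and a variance trend. A gene was called at an adjusted p under 0.05 (Benjamini-Hochberg over the 11194 genes within a comparison), at any fold. Count models were not used. The KO-WT difference of Camkk2 was also tested by exact permutation. Tables and figures were made in Python 3.11.15.

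The members and lists were chosen with earlier results of these data known. Named genes are the members, up to 4 genes of each of the 10 pathway lists, and the 5 genes most alike and 3 most opposed to Camkk2. The list genes were those called in the most of the 12 comparisons, with ties broken by the smallest adjusted p. Prkaa2 and Stk11, the marker and sex-linked genes, and the distance to Camkk2 were named after the values were seen. Coordinates are from GENCODE vM21 (13544 of 14098 symbols found). On simulated data for WT soft+IL-4 against WT soft (11194 genes), 73 of 100 genes changed 2-fold and 95 of 100 changed 4-fold were recovered. In the same run 4 unchanged genes were called. The changed genes were drawn from the more highly expressed ones, and the noise was independent between libraries. Changes under 2-fold, as in all 16 calls of the members, were not simulated, so these rates do not describe those calls. The alternatives were another pseudocount, filter, scaling, threshold and set of libraries, a replicate block, and leaving out libraries.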

Additional observations from a re-analysis of the deposited data

How the results depend on the processing

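None of the 16 calls changed sign under any alternative. A pseudocount of 0.1 kept 16 of 16 calls, median-of-ratios scaling 15 and no filter 14, where KO stiff against WT stiff had 1 called gene. With only the libraries compared, 11 were kept, and the counts were 0 for WT stiff against WT soft and for KO stiff against WT stiff, and 1 for KO soft+IL-4 against WT soft+IL-4 (Camkk2) and for stiff against soft averaged over genotypes, while IL-4 averaged rose from 4 to 5 (Prkab1). It was not run for KO against WT averaged, which uses all libraries. Without the 3 libraries that go against their labels 2 calls were kept, with 0 called genes for IL-4 and for stiff in WT, for IL-4 in KO, for KO stiff against WT stiff and for stiff averaged, 2 for IL-4 averaged and 1 for KO against WT averaged (Camkk2, by which the libraries were chosen). That fit has 3 fewer libraries. When a log2 change of 1 or more in size was also required, 0 genes were called with IL-4 in WT, KO or averaged, with stiff in WT or averaged, and in KO stiff against WT stiff. With an adjusted p under 0.1 the interaction with stiff matrix called 1 (Camk1). Leaving out 1 library at a time gave 1 to 4 called genes with IL-4 in WT, 1 to 3 with stiff in WT, 1 to 3 with IL-4 in KO, 0 to 3 in KO stiff against WT stiff, 0 to 2 for KO against WT averaged, 1 to 2 for stiff averaged and 0 to 1 for its interaction. The pathway and marker lists and uncalled members without the 3 libraries were alternatives chosen after seeing the data. The causes were not tested. The replicate numbers were not taken to pair the libraries, since the correlation of deviations was over 0.1 in only 3 of 15 pairs of groups (range -0.0526 to 0.314). Those 3 were the pairs among KO stiff, KO soft and WT soft libraries (0.314, 0.283 and 0.307), and the share of genes at 0 also separated the numbers in all 6 groups. With the replicate block 15 calls were kept and Prkag1 with IL-4 in KO was lost (log2 fold change -0.49, adjusted p = 0.0559). TPM sets no limit from depth.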
